A study of Mus musculus with 16 samples.

Results

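Untreated periaqueductal gray of wild-type mice was profiled in 4 polyA RNA sequencing libraries, the naive wild-type libraries 1 to 4 of a series of 16. The 4 libraries were chosen by genotype and treatment label alone. Each library pooled tissue punches of 2 male mice (4 punches of 14 gauge per sample). Neither strain nor age is given in the sources used here, and the labels record no vehicle or handling for this group. The other 12 libraries, 4 each of knockout naive, wild-type morphine and knockout morphine mice, belong to a study of morphine tolerance and of RGSz1, a regulator of G protein signalling encoded by Rgs20. They are used here only to show how far libraries of the other groups spread. There is no contrast within the 4 libraries, so levels are given as the mean ± SD over them (n = 4 throughout), and a difference between single libraries has no replicate check and no p-value.

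The periaqueductal gray is a ring of neurons around the midbrain aqueduct. It receives forebrain and spinal input on threat and pain, and its output through the ventral medulla damps or facilitates pain signals in the spinal cord. Opioids injected there relieve pain, in part by quieting local GABA neurons, and its ventral edge borders the dorsal raphe serotonin neurons, the Edinger-Westphal peptide neurons and the oculomotor nuclei. A punch can also take in ependyma lining the aqueduct, vessels, and the meninges on the dorsal surface of the midbrain.

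Between 26.5 and 50.2 M counts (1 M is 1000000 counts) fell on genes in each library, within the range of the other 12 libraries. Expression is given as CPM, a gene's count divided by its library's total over genes and scaled to 1000000. Levels of different genes are set against each other only as CPM per kilobase of exon (CPM/kb), because longer transcripts give more reads. Of 38924 genes in the files, 27365 had at least 1 count and 14647 reached 1 CPM in all 4 libraries, called expressed below. These included 13507 of 21226 protein-coding genes (63.6%). Levels spanned a wide range: 10154 genes were at 10 CPM or more in every library, 2286 at 100 CPM or more, and 59 at 1000 CPM or more. The median expressed gene stood at 5.95 CPM/kb. The Y-linked genes Ddx3y, Eif2s3y, Kdm5d and Uty were expressed in all 4 libraries and Xist was at 0.399 ± 0.068 CPM, as the male label has it. Library 2 stood apart from the others in genes of the brain's coverings, and values that rest on it are given with and without it.

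The most abundant entry was not a classical neural gene. Gm13340, an unprocessed pseudogene on the minus strand of chromosome 2 (GRCm38, chr2:22588103-22589647), held 16308, 15350, 15794 and 17271 CPM in libraries 1 to 4. All 37 genes encoded on the mitochondrial chromosome were listed at 0. The transcript of Gm13340 matched that of mt-Co1, a mitochondrially encoded subunit of cytochrome oxidase, at 97.6% of 1545 bases. Gm10222 (chr1:24612407-24612700, minus strand; 1188 ± 33 CPM) matched mt-Nd4l, a subunit of complex I, at 100% of 294 bases. The first 60 bases of each pair are shown because they let a reader see how alike the nuclear copies and the mitochondrial transcripts are. They run 5′ to 3′ and are taken from the GENCODE M21 transcripts, and capitals mark the bases at which the members of a pair differ.
Gm13340: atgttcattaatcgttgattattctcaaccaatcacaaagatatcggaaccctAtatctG
mt-Co1: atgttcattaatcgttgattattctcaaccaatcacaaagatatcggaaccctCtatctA
Gm10222: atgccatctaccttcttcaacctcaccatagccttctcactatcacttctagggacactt
mt-Nd4l: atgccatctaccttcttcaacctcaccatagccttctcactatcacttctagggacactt
The first pair differed at 2 of 60 bases and the second at 0. Of the 12 most abundant pseudogenes, 9 matched a mitochondrial transcript, 7 of them over at least 99% of their length at 92.4 to 100% identity. Those 7 together took 2.47%, 2.32%, 2.38% and 2.58% of the counts in libraries 1 to 4. Which genome their reads came from was not tested.

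Several well-known brain transcripts followed these copies in level per kilobase. Sparcl1, a matrix protein secreted by astrocytes, stood at 1093 CPM/kb and Cpe, the carboxypeptidase that trims peptide hormones, at 1083 ± 89 CPM/kb. Nap1l5 stood at 724, Apoe, the lipid carrier of astrocytes, at 669, Psap, a precursor of lysosomal activators, at 595, and the sodium pump subunit Atp1b1 at 537 CPM/kb. In plain CPM the noncoding RNA Meg3 came first among genes that are not pseudogenes (7649 ± 317 CPM), and the kinesin Kif5a (3384 ± 115) and the vesicle fusion protein Snap25 (2281 ± 149) were among the first 12. The 10 most abundant genes held 4.89 to 5.38% of counts in a library, and the 100 most abundant 15.9 to 16.8%.

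All 12 mature oligodendrocyte markers, all 12 astrocyte markers, all 12 microglia markers and all 11 general neuron markers were expressed. The general neuron genes had a median of 113 CPM/kb, and the oligodendrocyte genes 97.7 CPM/kb. Mbp, myelin basic protein, was at 414 ± 81 CPM/kb. Astrocyte genes had a median of 36.2 CPM/kb, led by Aldoc, a glycolytic enzyme, at 370 ± 25 CPM/kb and the glutamate transporter Slc1a2 at 155 ± 8.0 CPM/kb. Medians were far lower for ependymal cells (9.29 CPM/kb, 8 of 8 expressed, among them Foxj1, the factor for motile cilia), microglia (7.21 CPM/kb) and endothelium (3.93 CPM/kb, 11 of 11 expressed). Oligodendrocyte precursor genes had a median of 3.28 CPM/kb with 7 of 7 measured members expressed. The levels depend on the length chosen: per kilobase of the longest annotated transcript the medians were 206 for general neurons, 116 for oligodendrocytes, 59.3 for astrocytes, 9.55 for ependymal cells, 7.54 for microglia, 6.89 for endothelium and 3.94 for precursors, in the same order. Choroid plexus was nearly absent: Ttr, its most abundant transcript, was at 0.478 ± 0.18 CPM, and 4 of 7 members were expressed at a median of 1.02 CPM/kb. Because these are bulk tissue samples, fewer cells of a type and less RNA per cell cannot be told apart.

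Most midbrain factors were expressed, and a smaller share of the markers of neighbouring regions. Of 24 midbrain transcription factors, 22 were expressed in all 4 libraries. They included Otx2 and the engrailed pair En1 and En2, which set up midbrain identity, with En1 at 10.5 ± 2.0 CPM and Otx2 at 15.3 ± 2.5 CPM. Tal1 and Gata3, selector genes of midbrain GABA neurons, were at 6.42 ± 1.2 and 5.41 ± 0.76 CPM/kb. The highest factor per kilobase was Tcf7l2, a Wnt pathway partner of beta-catenin, at 17.9 ± 1.9 CPM/kb. The median of the expressed factors was 3.82 CPM/kb. Of 7 forebrain markers 3 were expressed, the highest being Sstr1, which is also a somatostatin receptor, at 11.1 ± 1.3 CPM/kb, above that median. Of 6 cerebellar markers 2 were expressed, with Barhl2 the higher at 5.04 CPM/kb. None of 8 hindbrain Hox genes was expressed: Hoxa3 and Hoxb2 had 0 counts over the 4 libraries, which allows up to 0.0179 CPM (3 counts in all), and the others had at most 7 counts each. None of 6 hypothalamic genes was expressed, though together they summed to 1.26 ± 0.11 CPM and the highest stood at 0.857 CPM/kb. The vasopressin precursor Avp and the oxytocin precursor Oxt were at 0.0456 ± 0.018 and 0.0528 ± 0.017 CPM, and the hypothalamic factor Six6 had no count.

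Fast transmission was dominated by Slc17a6 and by the GABA genes. Slc17a6, the vesicular glutamate transporter VGLUT2, was at 92.2 ± 9.2 CPM/kb, against 1.19 ± 0.31 for Slc17a7 (VGLUT1) and 1.05 ± 0.72 for Slc17a8 (VGLUT3). In CPM, Slc17a6 measured 479, 521, 552 and 438 in libraries 1 to 4. The 4 values lay close together, with library 3 highest. Gad2 and Gad1, which make GABA, were at 81.6 ± 15 and 48.0 ± 14 CPM/kb, and Slc32a1, the vesicular transporter of GABA and glycine, at 46.8 ± 13. Gad1 measured 371, 288, 289 and 521 CPM, with libraries 1 and 4 above libraries 2 and 3. Slc6a5, the glycine transporter of glycinergic neurons, measured 44.6, 15.9, 21.8 and 28.2 CPM. It was highest in library 1 and stood at 3.84 ± 1.7 CPM/kb.

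**Figure D1:**
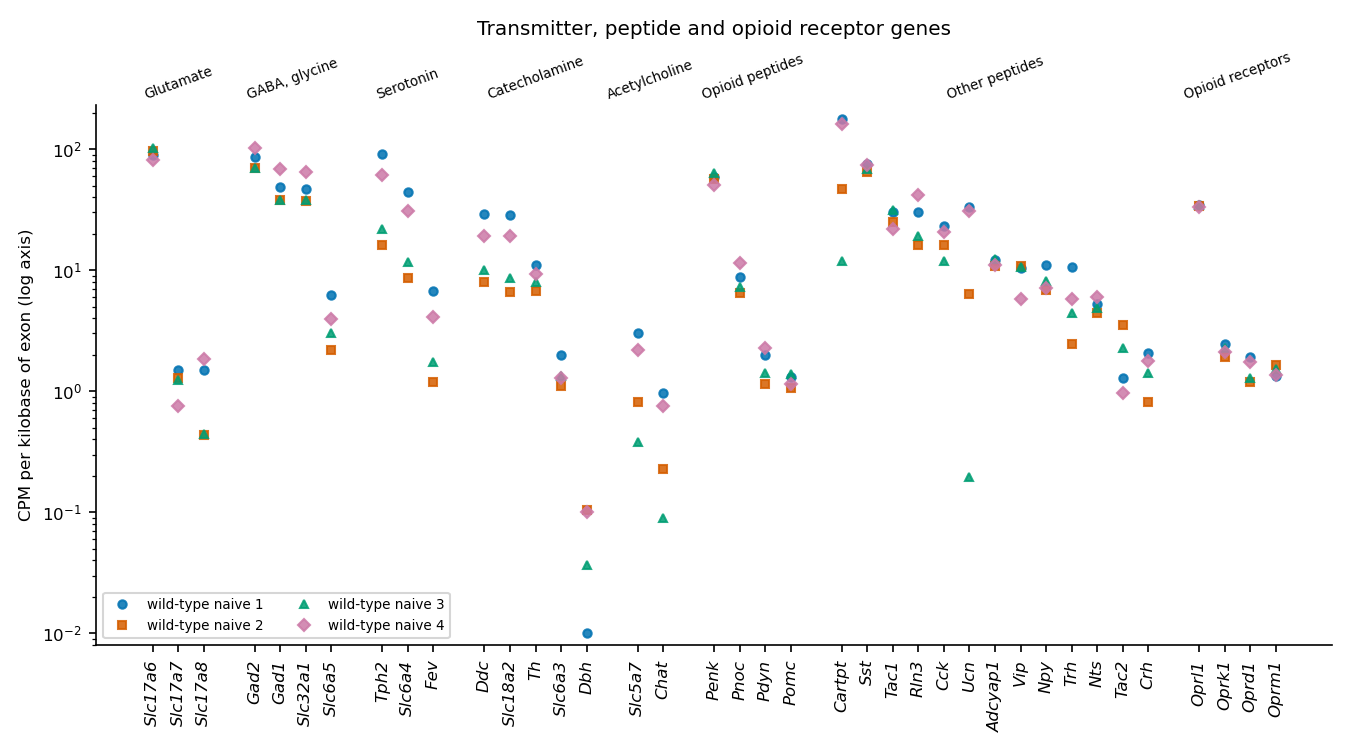
Levels of transmitter, peptide precursor and opioid receptor genes in CPM per kilobase of exon on a log axis, 1 point for each of the 4 wild-type naive libraries. Slc17a6, Gad2 and Penk sit close together across libraries, while the points of Ucn, Cartpt, Tph2 and Chat spread widely; Dbh, with 0 counts in library 1, is drawn at 0.01 there.

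Modulatory neurons were represented by smaller and much less even signals. Tph2, the enzyme that commits tryptophan to serotonin in the brain (chr10:115078641-115185022), was at 47.5 ± 35 CPM/kb. Slc6a4, the serotonin transporter, was at 23.8 ± 17 CPM/kb. The dopamine and serotonin enzyme Ddc stood at 16.6 ± 9.6 CPM/kb and the vesicular monoamine transporter Slc18a2 at 15.8 ± 10 CPM/kb. Th, which makes the precursor of dopamine, was at 8.79 ± 1.9 CPM/kb, and Slc6a3, the dopamine transporter, at 1.43 ± 0.38 CPM/kb. The noradrenaline genes Dbh and Slc6a2 were at 0.163 ± 0.14 and 0.262 ± 0.19 CPM, and both had 0 counts in library 1, which allows up to 0.113 CPM there. Chat, the enzyme that makes acetylcholine, was at 0.511 ± 0.42 CPM/kb.

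Penk led the opioid peptide precursors. Penk, the enkephalin precursor (chr4:4133531-4138819), measured 95.8, 93.3, 104 and 83.2 CPM in libraries 1 to 4. The 4 values were close, and its mean of 57.5 ± 5.2 CPM/kb ranked 627 among 14516 expressed genes with a length. Pnoc, the nociceptin precursor, measured 18.9, 13.9, 15.6 and 24.7 CPM (8.47 ± 2.2 CPM/kb). Pdyn, the dynorphin precursor, measured 5.74, 3.33, 4.12 and 6.55 CPM (1.71 ± 0.51 CPM/kb). Both were highest in libraries 4 and 1 and lowest in library 2. Pomc, the precursor of beta-endorphin, which in brain is made chiefly by hypothalamic neurons that project here, measured 1.74, 1.41, 1.83 and 1.52 CPM (1.23 ± 0.15 CPM/kb).

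Among the other peptide precursors, 17 of 25 measured were expressed. Cartpt, the precursor of CART peptides, had the highest mean at 99.2 CPM/kb but an SD of 82. Sst, somatostatin, was at 70.4 ± 4.9 CPM/kb, Tac1, the substance P precursor, at 27.0 ± 4.5, and Rln3, the relaxin-3 precursor, at 26.7 ± 12. Cck, cholecystokinin, stood at 17.9 ± 4.9, Adcyap1, the PACAP precursor, at 11.6 ± 0.75 and Vip at 9.36 ± 2.4 CPM/kb. Of these, Sst and Adcyap1 had the smallest spread between libraries relative to their means. Low members included Crh, corticotropin-releasing hormone, at 1.52 ± 0.55 CPM/kb and the neuropeptide S precursor Nps at 0.0511 ± 0.023 CPM. The machinery that packages peptides was abundant and even: all 11 granin and processing genes were expressed, with a median of 109.9 CPM/kb and a score that differed by only 0.10 (log2) between libraries. Scg2, a granin of dense core vesicles, was at 226 ± 30 CPM/kb.

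All 4 opioid receptor genes were expressed, and Oprl1 stood well above the classical 3. Oprl1, the nociceptin receptor (chr2:181715016-181720985), measured 129, 126, 129 and 124 CPM, the mu receptor Oprm1 (chr10:6758506-7038198) 10.8, 13.2, 12.3 and 10.9 CPM. Neither gene had a library far from the rest. Oprk1, the kappa receptor (chr1:5588466-5606131), measured 22.6, 17.6, 20.9 and 19.4 CPM, and the delta receptor Oprd1 (chr4:132110726-132144486) measured 7.77, 4.82, 5.18 and 6.99 CPM. Per kilobase of all annotated exons, Oprl1 was at 33.9 ± 0.62, Oprk1 at 2.20 ± 0.23, Oprd1 at 1.54 ± 0.35 and Oprm1 at 1.47 ± 0.15. Oprd1 and Oprm1 did not differ beyond their spread. Only the first place of Oprl1 was safe from the choice of length: with the longest annotated transcript in place of all exons, Oprl1 was at 41.0, Oprm1 at 4.88, Oprk1 at 4.30 and Oprd1 at 1.54 CPM/kb, so Oprm1 moved from last to the second place.

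Genes that act downstream of these receptors were expressed at moderate to high levels. Opioid receptors couple to inhibitory G proteins, and Gnai1, Gnai2 and Gnao1 were at 57.2 ± 2.0, 54.7 ± 4.2 and 49.0 ± 0.57 CPM/kb. Gnai1 and Gnai2 overlapped in mean ± SD. The order of these alpha subunits depends on the length: per kilobase of the longest transcript Gnao1 was at 98.1, Gnai2 at 93.4 and Gnai1 at 57.2 CPM/kb. Gnaz, the alpha subunit on which RGSz1 acts, was at 20.6 ± 0.93 CPM/kb. Among RGS genes, whose products end G protein signals sooner, 17 of 21 were expressed. Rgs17 (RGSz2) was at 30.2 ± 1.6 CPM/kb, next to Rgs4 at 28.3 ± 3.2 and Rgs10 at 22.1 ± 0.69, and Rgs20 stood at 3.05 ± 0.21. Which was highest depends on the length, since per kilobase of the longest transcript Rgs10 came first at 42.9 CPM/kb, against 30.6 for Rgs17. In CPM, Rgs20 measured 11.6, 13.5, 13.6 and 13.0, so the gene the series is about was present in every library at an even level. The GIRK potassium channel subunits opened by these G proteins ran in the order Kcnj9 (13.7 ± 0.57 CPM/kb), Kcnj3 (9.57 ± 0.57), Kcnj6 (1.83 ± 0.15) and Kcnj5 (1.59 ± 0.33). Kcnj6 and Kcnj5 overlapped in mean ± SD. The score range between libraries, defined below with the marker lists, was 0.12 (log2) for G protein alpha subunits, 0.19 for RGS genes and 0.24 for GIRK subunits. Of 17 RGS genes 1, Rgs16, had at least a 2-fold ratio between libraries (6.83, 14.1, 9.43 and 7.68 CPM), against 3.95% of all genes.

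Receptors for the main transmitters were expressed broadly. Of 19 GABA-A receptor subunits 14 were expressed, among them Gabra3 at 37.6 ± 1.7 CPM/kb. The cerebellar subunit Gabra6 was at 0.124 ± 0.12 CPM, and Gabrp and Gabrr3 had 2 counts each over the 4 libraries. Gabbr1, a subunit of the GABA-B receptor, was at 112 ± 3.9 CPM/kb, and the glycine receptor subunit Glrb at 64.4 ± 2.8. All 18 ionotropic glutamate receptor genes were expressed. Gria1 was at 74.6 ± 9.8 CPM/kb, above Grin1 (32.1 ± 0.98), Gria4 (28.9 ± 2.5) and Gria2 (28.6 ± 2.4), and the last 2 did not differ beyond their spread. The metabotropic receptors were led by Grm5 (16.9 ± 2.2 CPM/kb) and Grm3 (14.8 ± 0.91), and Grm6, the receptor of retinal bipolar cells, had 2 counts in all.

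Each monoamine and acetylcholine family had 1 or a few high members. Htr2c was at 24.8 ± 0.70 CPM/kb and led 11 expressed of 14 serotonin receptors. Htr7 (8.79 ± 0.68 CPM/kb) and the autoreceptor Htr1a (6.98 ± 0.96) followed. Drd2 (7.58 ± 0.40 CPM/kb) and Adra2a (7.04 ± 0.59) led 11 expressed of 14 dopamine and adrenergic receptors and overlapped in mean ± SD. Chrna4 and Chrnb2, which form the main high-affinity nicotinic receptor of the brain, were at 21.6 ± 1.3 and 11.9 ± 0.18 CPM/kb, and 12 of 18 acetylcholine receptors were expressed. The adenosine receptor Adora1 stood at 23.7 ± 0.74 CPM/kb.

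**Figure D2:**
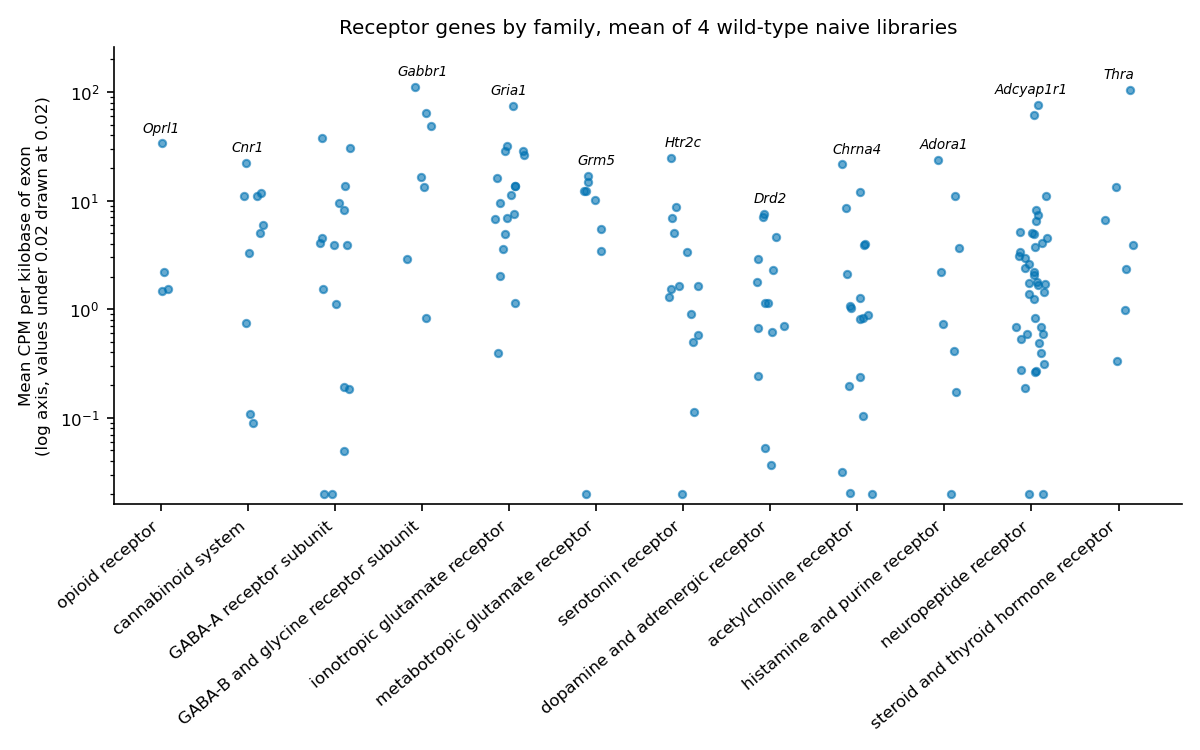
Mean level over the 4 wild-type naive libraries of receptor genes, by family, in CPM per kilobase of exon on a log axis; each point is 1 gene, and a name, where given, marks the highest of its family. Gabbr1 reaches 112 and Thra 105 CPM/kb, and most families hold members spread over more than 2 steps of the axis, each step being 10-fold.

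Peptide, lipid and hormone receptors followed the same shape. Adcyap1r1, the PACAP receptor, at 76.3 ± 5.7 CPM/kb, and Ntsr2, a neurotensin receptor of astrocytes, at 61.5 ± 1.7 CPM/kb stood far above the other 39 neuropeptide receptors, the next being Sstr1 at 11.1 ± 1.3. In all 34 of 41 were expressed, among them Tacr1, the substance P receptor, at 4.92 ± 0.77 CPM/kb. The vasopressin receptor Avpr1b and the neurokinin receptor Tacr2 had 1 and 2 counts. The cannabinoid receptor Cnr1 was at 22.2 ± 1.9 CPM/kb, and the endocannabinoid-degrading enzymes Mgll and Faah at 11.0 ± 0.48 and 5.92 ± 0.41, while Cnr2 was at 0.353 ± 0.18 CPM. Thra, the thyroid hormone receptor alpha, was at 105 ± 6.6 CPM/kb and Nr3c1, the glucocorticoid receptor, at 13.4 ± 1.1. The estrogen receptor Esr1 stood at 0.980 ± 0.086 CPM/kb.

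Most genes hardly differed between the 4 libraries. Over 15117 genes with a mean of at least 1 CPM, the median ratio of the highest to the lowest library was 1.15, and 88.1% of genes stayed under 1.5. At least a 2-fold ratio was found for 597 genes (3.95%). Library 2 was the highest for 434 of these (72.7%), library 4 for 67, library 1 for 64 and library 3 for 32. The common biological coefficient of variation, edgeR's estimate of the spread between libraries beyond counting error, was 0.117 with all 4 and 0.0728 without library 2. It was 0.0491 in knockout naive, 0.0653 in wild-type morphine and 0.0873 in knockout morphine libraries. Of the variance between libraries, 64.8% lay on 1 axis that set library 2 (0.25) apart from libraries 1, 3 and 4 (-0.10, -0.03 and -0.13).

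**Figure D3:**
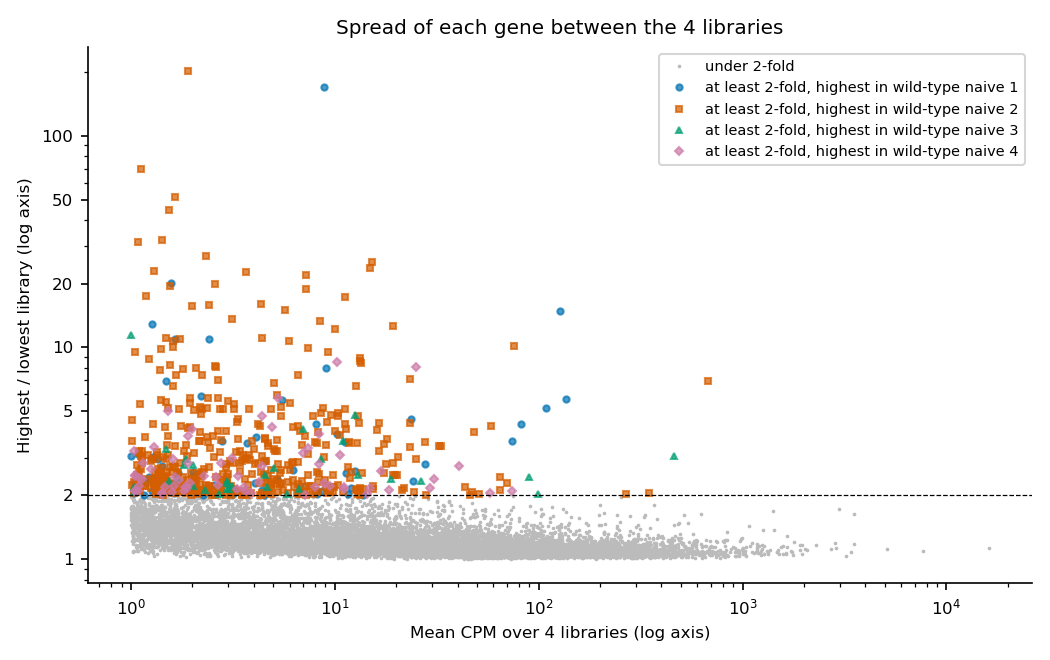
Ratio of the highest to the lowest of the 4 wild-type naive libraries against mean CPM for each gene with a mean of at least 1 CPM and no library at 0, both axes log; colour and shape mark the highest library where the ratio is at least 2 (dashed line). Orange squares, highest in library 2, make up most of the points above the line. With genes that have a library at 0 included, which are not drawn, the count was 434 of 597 genes at this threshold.

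Meningeal fibroblast genes set library 2 apart. All 11 markers of these cells, which build the collagen sheets over the brain surface, had at least a 2-fold ratio (against 3.95% of all genes), and their summed level was 69.5, 576, 67.4 and 62.5 CPM in libraries 1 to 4. The gene lists were chosen with earlier results of these data known. No excess over the share of all genes is therefore read from this or other list counts. Fmod, a collagen-binding proteoglycan (chr1:134037254-134048277), measured 2.11, 53.6, 2.73 and 2.47 CPM. Igf2, a growth factor made by meninges in the adult brain, measured 25.9, 227, 26.7 and 22.3 CPM. Col1a2, a chain of type I collagen, measured 9.96, 64.0, 10.3 and 9.00 CPM. In each of the 3 genes library 2 stood alone and the other libraries lay close together. Slc13a4, a sulfate transporter, measured 2.42, 52.1, 2.83 and 2.20 CPM, and Ogn, a small matrix proteoglycan, 2.19, 37.8, 2.27 and 2.59 CPM. Most of the 20 protein-coding genes with the largest ratios were highest in library 2, among them Mgp, an inhibitor of calcification (7.02, 59.0, 4.66 and 6.94 CPM), Aldh1a2, which makes retinoic acid (2.23, 27.2, 2.05 and 2.18 CPM), and the adhesion protein Cdh1 (0.566, 12.8, 0.677 and 0.636 CPM).

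Other cells of the brain border moved with them. Each marker list was given a score per library: the average log2(CPM + 0.1) of its members, less the list's average over the 4 libraries. It was -0.73, 2.38, -0.79 and -0.87 for meningeal fibroblasts and -0.42, 1.28, -0.40 and -0.46 for macrophages of the brain borders. Mrc1, the mannose receptor of those macrophages, measured 3.13, 11.1, 3.01 and 2.18 CPM, highest in library 2. In the list of pericytes and smooth muscle 4 of 9 members had a 2-fold ratio, against 3.95% of all genes. They were the contractile genes Acta2, Tagln and Myh11, and Vtn. Acta2 measured 7.32, 18.7, 3.82 and 4.47 CPM and Tagln 4.87, 14.4, 3.58 and 4.16 CPM. Vtn reached 110.01 CPM in library 2, far above the other libraries. Kcnj8, a channel of pericytes named after its values were seen, was even at 4.17 ± 0.065 CPM. Of the 9 members 5 were highest in library 2, 2 in library 1 and 2 in library 3. Whether pericytes and smooth muscle differed in this was not tested. No endothelial, microglial or astrocyte marker reached 2-fold (against 3.95% of all genes). Gfap, the filament of fibrous and surface astrocytes, measured 52.3, 104, 82.4 and 62.0 CPM and was highest in library 2, short of a 2-fold ratio. Without library 2 the score range fell from 3.25 to 0.14 for meningeal fibroblasts, from 1.74 to 0.059 for border macrophages and from 0.87 to 0.35 for pericytes and smooth muscle.

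**Figure D4:**
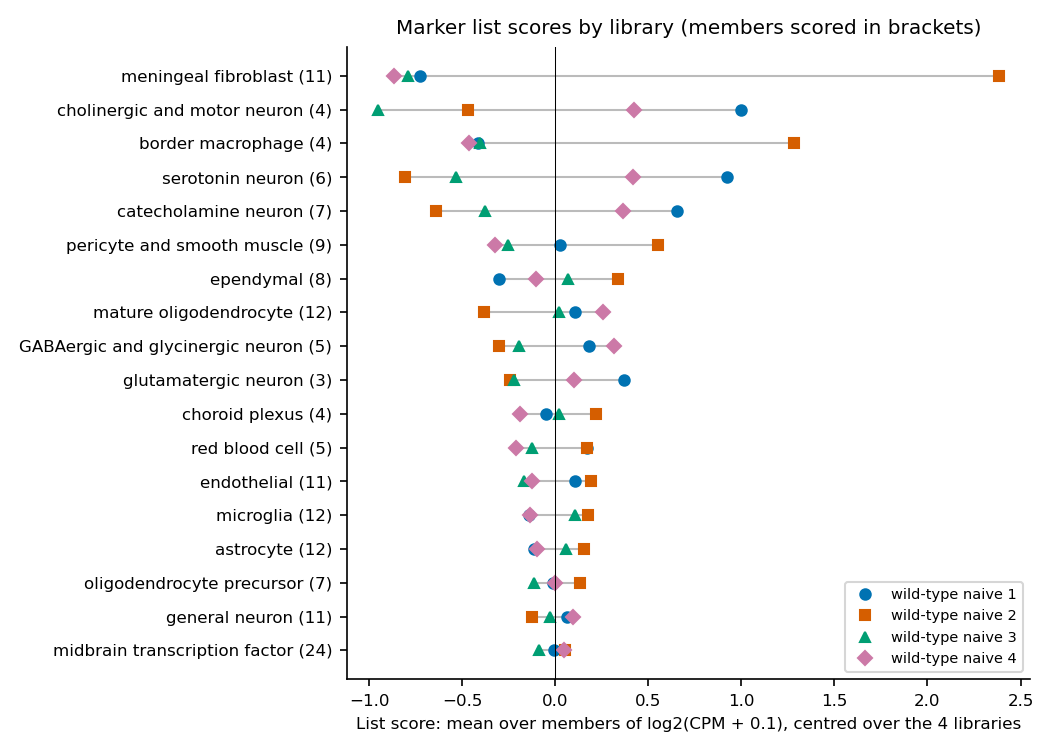
Score of each cell type and neuron type list in the 4 wild-type naive libraries (log2 scale, 0 is the mean of the libraries; the number scored is in brackets), lists ordered by the range. Library 2 lies at 2.38 for meningeal fibroblasts, serotonin and cholinergic lists are spread with library 1 highest, and the midbrain factor list spans 0.14.

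Myelin genes ran the other way in library 2. Mbp measured 3719, 2568, 3521 and 4200 CPM. Mog, a surface protein of mature myelin, measured 122, 81.4, 117 and 144 CPM. Both were lowest in library 2, and libraries 3 and 1 lay between it and library 4. The summed level of the 12 oligodendrocyte markers was 10179, 7132, 9679 and 11786 CPM, and none of the 12 reached a 2-fold ratio (against 3.95% of all genes). The general neuron markers summed to 8762, 7917, 8336 and 8917 CPM, a smaller difference with the same library lowest. Meningeal genes, high in that library, summed to 576 CPM there; their part in its lower myelin values was not tested.

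Serotonin neuron genes were highest in library 1 and lowest in library 2. Tph2 measured 264, 46.1, 63.0 and 174 CPM, Slc6a4 measured 202, 38.9, 52.8 and 139 CPM, and Fev, the factor that holds serotonin identity, 10.8, 1.91, 2.83 and 6.60 CPM. In all 3 the order was library 1, then 4, then 3, then 2. The ratio of the highest to the lowest library, with 0.1 CPM added to both, was 5.71 for Tph2, 5.17 for Slc6a4 and 5.43 for Fev. The monoamine genes shared with these neurons kept the same order: Slc18a2 measured 149.7, 34.3, 45.1 and 100.3 CPM, Ddc 129, 35.8, 45.0 and 86.2 CPM, and Gch1, which makes the cofactor of Tph2 and Th, 18.2, 4.66, 6.21 and 12.1 CPM. Dopamine markers differed less, with Slc6a3 at 6.83, 3.85, 4.60 and 4.47 CPM and Th at 26.2, 15.9, 18.9 and 22.2 CPM. Among serotonin receptors Htr2c was even, at 234, 223, 238 and 232 CPM, but the score of the list was highest in library 1 and lowest in library 2, with a range of 0.30. Of 12 such receptors with a mean of at least 1 CPM, Htr1d alone had at least a 2-fold ratio (7.21, 3.06, 3.58 and 7.09 CPM), against 3.95% of all genes. Libraries 1 and 4 both lay above 2 and 3 in 5 of 12, against 19.5% of all genes (25.3% with DESeq2 size factors). Lmx1b, a factor of serotonin and dopamine neurons, measured 9.89, 4.47, 4.82 and 7.73 CPM.

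The widest ratio among protein-coding genes of at least 2 CPM was that of Ucn. Ucn, the urocortin precursor and hallmark peptide of the Edinger-Westphal nucleus (chr5:31138063-31138829), measured 16.9, 3.18, 0.0995 and 15.4 CPM. Library 3 held almost none of it, 5 counts, while libraries 1 and 4 were alike. Cartpt, which the same neurons make (chr13:99898489-99901091), measured 226, 60.3, 15.3 and 205 CPM with the same order of libraries. The cholinergic genes were divided in their lowest library. It was library 3 for 2 of the 4 scored, as Chat measured 4.57, 1.07, 0.418 and 3.57 CPM, and the choline transporter Slc5a7 measured 17.1, 4.64, 2.15 and 12.3 CPM. It was library 2 for the others, Prph, a filament of peripheral and motor neurons (12.3, 6.03, 6.11 and 8.36 CPM), and Isl1. Motor neuron factors were scarce, with Isl1 at 0.885 ± 0.35 CPM and Phox2a at 1 count in all. Cck, a further peptide of this region, measured 30.0, 20.9, 15.5 and 26.9 CPM.

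The promoters of 8 genes with a wide spread between libraries were read from the RefSeq table (GRCm38.p6). Whether promoter letters bear on that spread was not tested. The window ran from 250 bases before to 50 bases after the start, and the motif searched was TGACGTCA, the full cAMP response element, which reads the same on both strands. It was chosen after the promoters had been looked at. Of 9 promoters of 8 genes searched (Ucn, Cartpt, Tph2, Slc6a4, Fev, Ddc, Gch1 and Slc18a2), 3 held it, those of Ucn, Cartpt and Slc18a2. It is found in 1.79% of all 32851 promoters of the same length and in 2.93% of those of expressed genes. Since both genes and motif were chosen with the data in view, no excess over these shares is read from the count. The 150 bases before the RefSeq start are shown for the 2 peptide genes, 5′ to 3′ on the gene's own minus strand, with the motif in capitals, 44 and 112 bases before the start. The Ucn stretch is chr5:31138896-31139045 and the Cartpt stretch is chr13:99900684-99900833. The RefSeq starts are not the ends of the gene spans given above, which are from GENCODE: the Ucn start lies 66 bases upstream of its span and the Cartpt start 408 bases inside its span, so that the Cartpt stretch is within the annotated gene.
Ucn: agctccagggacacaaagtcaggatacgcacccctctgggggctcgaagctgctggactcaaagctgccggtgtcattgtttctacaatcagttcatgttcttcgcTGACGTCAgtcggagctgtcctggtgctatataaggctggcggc
Cartpt: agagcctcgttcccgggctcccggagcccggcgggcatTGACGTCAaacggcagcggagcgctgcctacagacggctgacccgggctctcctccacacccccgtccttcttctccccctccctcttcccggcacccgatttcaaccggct
The Slc18a2 motif begins 4 bases before the start. A match of letters is a description of these promoters and no measure of binding, and the 5 genes without a match may carry variants of the motif that were not searched.

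Midbrain transcription factors had an even list score but split by library. Their summed level was 505, 608, 605 and 505 CPM in libraries 1 to 4. The score of the list differed by only 0.14 between libraries, yet 9 of its 24 members had at least a 2-fold ratio (against 3.95% of all genes). In 11 of the 24, libraries 1 and 4 both lay above libraries 2 and 3, by any margin, against 19.5% of all genes. In 10 of the 24, libraries 2 and 3 both lay above 1 and 4, against 30.5% of all genes. With DESeq2 size factors the shares of all genes were 25.3% and 24.3%, so which of the 2 orders is commoner among all genes turns with the scaling. This order was noticed after the values had been seen, and it held for the same numbers of these factors with TMM scaling and with DESeq2 size factors.

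Some factors known from the ventral midbrain were in the first set. Foxa2, a floor plate factor, measured 4.26, 1.91, 1.57 and 4.74 CPM, Nkx6-1, a factor of ventral progenitors and motor neurons, measured 5.58, 2.36, 1.57 and 5.28 CPM, and Sim1 measured 2.64, 1.21, 0.816 and 3.35 CPM. In each, libraries 1 and 4 were more than 2-fold above 2 and 3. Lhx1 measured 10.8, 6.99, 6.31 and 14.0 CPM, and the GABA neuron factors Gata2 and Tal1 showed the same order over a smaller range (Tal1, 30.4, 23.7, 23.8 and 34.6 CPM). The second set included some factors known from the dorsal midbrain and tectum. Foxa2, Nkx6-1, Lhx1, Gata2, Lhx9 and Pax7 were named after their values were seen. The other members of both sets are not placed here, so a split of the whole list into ventral and dorsal factors was not tested. Pou4f2 measured 17.6, 37.1, 33.1 and 12.5 CPM and Pax7, a factor of the tectum, measured 11.1, 19.95, 20.1 and 11.3 CPM. Tfap2b measured 39.5, 66.6, 65.3 and 32.9 CPM, and Lhx9 35.6, 58.0, 53.9 and 26.4 CPM. Their libraries 2 and 3 were the high ones and did not overlap with 1 and 4.

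**Figure D5:**
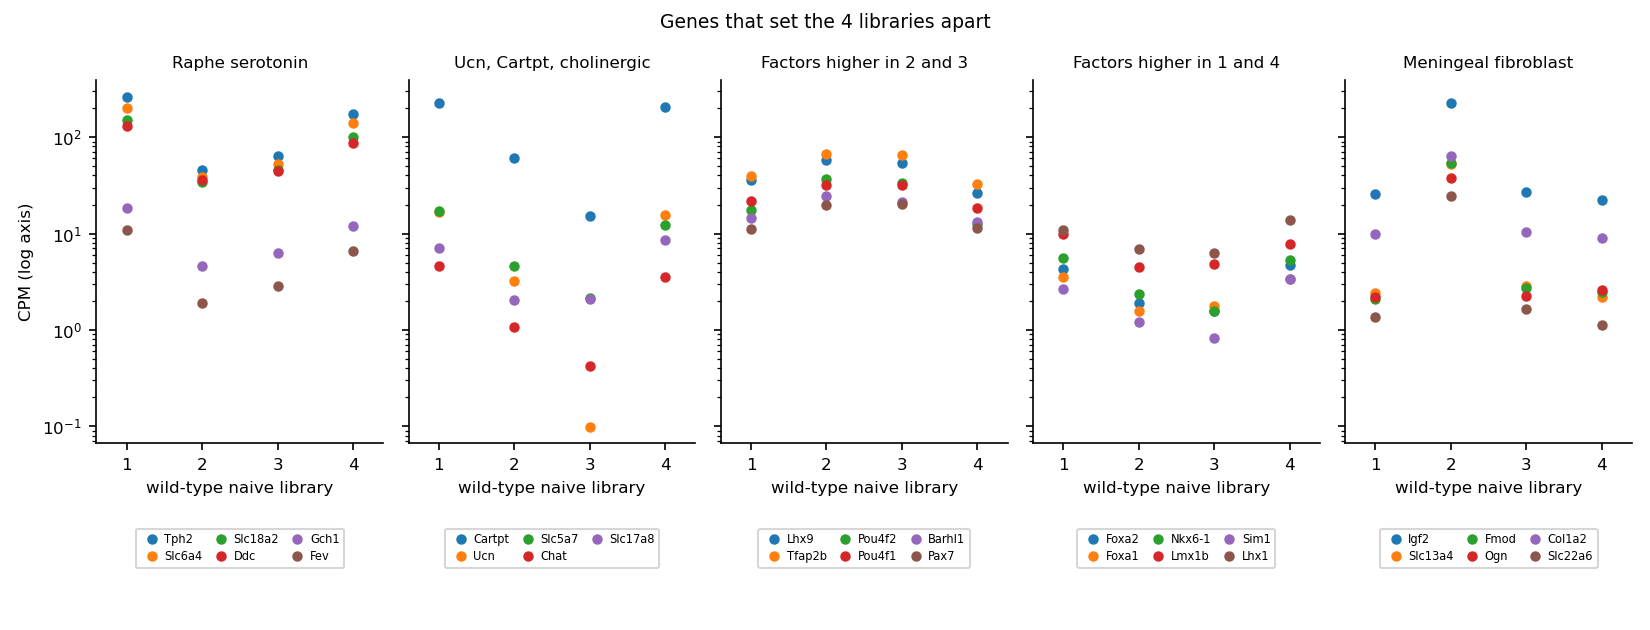
CPM on a log axis in wild-type naive libraries 1 to 4 for 5 sets of genes; each point is 1 gene in 1 library. Serotonin genes, Ucn and Cartpt, and Foxa2, Nkx6-1 and Sim1 are higher in libraries 1 and 4, Pou4f2, Pax7, Tfap2b and Lhx9 are higher in libraries 2 and 3, and meningeal genes are higher in library 2 alone.

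Some other lists followed 1 of these orders, and others neither. Only list members with a mean of at least 1 CPM are counted here. That leaves 7 of 10 measured catecholamine genes and 3 of 6 measured cholinergic genes. Dbh and Slc6a2, both at 0 counts in library 1, are among those left out. Libraries 1 and 4 both lay above 2 and 3 in 6 of 6 serotonin neuron genes, 6 of 7 catecholamine genes, 3 of 3 cholinergic genes, 11 of 12 oligodendrocyte genes and 9 of 11 general neuron genes, against 19.5% of all genes (25.3% with DESeq2 size factors). The catecholamine count is not separate from the serotonin count, as Ddc, Slc18a2 and Gch1 are shared with serotonin neurons. The dopamine transporter Slc6a3 did not keep this order. The opposite order held in 8 of 8 ependymal, 11 of 12 microglia and 9 of 12 astrocyte genes, against 30.5% of all genes (24.3%). With those size factors the counts were 11 of 12 for oligodendrocytes, 8 of 11 for general neurons, 10 of 12 for microglia and 8 of 12 for astrocytes. Neither order held for 10 of 11 endothelial genes, 7 of 9 of pericytes and smooth muscle, 5 of 5 of red blood cells, 3 of 3 of border macrophages, 8 of 13 glucocorticoid-induced genes and 7 of 13 acetylcholine receptors. Over all genes it was 7558 of 15117. Most of these differences were small, since no microglia, astrocyte or ependymal gene reached 2-fold (against 3.95% of all genes). Foxj1, for example, measured 28.2, 41.2, 37.2 and 35.8 CPM. The second order also held in 12 of 17 immediate early genes (11 with DESeq2 size factors), against 30.5% of all genes (24.3%). Of these 17, 4 had at least a 2-fold ratio, against 3.95% of all genes. Fos measured 13.5, 25.4, 25.8 and 10.7 CPM and Egr1 51.5, 87.8, 77.8 and 41.3 CPM. Among clock genes the second order held in 12 of 15 (11 with DESeq2 size factors), against 30.5% of all genes (24.3%). Hlf, an output gene of the clock, measured 67.1, 119, 98.0 and 78.0 CPM and Dbp measured 40.2, 48.8, 49.3 and 39.98 CPM. Among the 4 opioid receptors, 1 gene, Oprd1, had libraries 1 and 4 higher and 1, Oprm1, had libraries 2 and 3 higher.

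Single libraries had a few genes of their own. Sspo, the matrix protein of the subcommissural organ at the front of the aqueduct, measured 18.7, 7.30, 15.9 and 58.8 CPM and was highest in library 4. Postn, a matrix protein, measured 14.0, 6.65, 2.15 and 18.3 CPM and Slc17a8 measured 7.02, 2.06, 2.09 and 8.63 CPM, both with libraries 4 and 1 highest. Lars2, the mitochondrial leucyl-tRNA synthetase, measured 71.2, 61.0, 149.7 and 78.1 CPM, with library 3 alone high. Padi2, an enzyme of oligodendrocytes that converts arginine to citrulline, measured 98.0, 72.6, 147 and 81.1 CPM, again with library 3 highest. Klk1b22 (1.85, 0, 2.77 and 4.30 CPM) belongs to a family of near-identical kallikrein genes and Eno1b (31.3, 16.5, 38.7 and 20.05 CPM) is a near-copy of Eno1, so how their reads were assigned is uncertain.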

How the data were processed

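PolyA RNA of male mouse periaqueductal gray was sequenced from TruSeq v2 libraries, per the labels' protocols. The deposited values are raw counts of reads for every gene. HTSeq and the mm10 build come from the submitters' processing notes, where limma is named too. No aligner or annotation is given in the sources used here. As the kit keeps no strand, reads of overlapping antisense genes cannot be separated. HTSeq's tallies outside genes (39.1 to 39.3% of the total in the 4 libraries, 24.6 to 25.1% not uniquely placed) stayed out of totals.

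The labels call the samples biological replicates. Counts were divided by the total over genes (CPM), and by the length of all annotated exons of GENCODE M21 (GRCm38, the assembly of mm10; 37607 of 38924 identifiers matched). Expressed means at least 1 CPM in all 4 libraries. Every pair of the 4 libraries differed beyond sampling noise (chi-square per gene 5.19 to 30.3). edgeR 4.0.16 (R 4.3.3) gave the coefficient of variation and TMM scaling, and DESeq2 1.42.0 other size factors; scripts in Python 3.11.15 were tested on simulated data. Depth sets the precision: 3 counts are 0.113 CPM in the smallest library and 0.0597 CPM in the largest, and such limits cover counting error only.

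The members and the 45 gene lists were chosen with earlier results of these data known. Named genes came from the 12 highest by CPM and by CPM per kilobase, all opioid genes, up to 6 highest and the lowest of each list and members with 3 or fewer counts, the 20 protein-coding genes with the largest ratio between libraries (mean of at least 2 CPM), and up to 8 highest and 4 lowest genes of each library against the other 3; 24 further list members were named after their values were seen (Adcyap1, Col1a2, Crh, Dbh, En1, En2, Esr1, Foxa2, Gata2, Gata3, Gfap, Gnaz, Kcnj8, Lhx1, Lhx9, Mog, Nkx6-1, Otx2, Pax7, Rgs16, Rgs20, Slc6a3, Tacr1 and Vip). A few genes inside the rule are left out of this text. Alternatives were the scaling, the filters, the value added before log2, the transcript length and leaving out each library.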

Additional observations from a re-analysis of the deposited data

Results flagged for a closer look

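Of 44 list scores, 2 had 1 library far from the other 3, which lay close together: meningeal fibroblasts (2.38) and border macrophages (1.28), both highest in library 2. The same held for 16 of 158 genes named in the text, 12 of them in library 2. Chance alone marks about 1 group of values in 20, but many of these genes were named because 1 library stood apart, so the share is not to be read against that rate. The high values in library 2 were 227 CPM for Igf2, 110.01 for Vtn, 64.0 for Col1a2, 59.0 for Mgp, 53.6 for Fmod, 52.1 for Slc13a4, 37.8 for Ogn, 27.2 for Aldh1a2, 14.4 for Tagln, 12.8 for Cdh1 and 11.1 for Mrc1. Vip, the precursor of vasoactive intestinal peptide, had a single low value, 19.5 CPM in library 4, against 35.2, 36.7 and 35.98 CPM in libraries 1 to 3. Kcnj8 had a value of 4.26 CPM in library 1 that differed little in size from the others, which ran from 4.13 to 4.14 CPM. Some genes with 1 to 3 counts in all had them in 1 library: Avpr1b in library 2 (0.0202 CPM), Cga (0.0597 CPM) and Phox2a (0.0199 CPM) in library 3.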

How the results depend on the processing

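Library 2 decided most of the spread. The number of genes with at least a 2-fold ratio, 597, ran from 191 to 531 when 1 library was left out (191 without library 2), was 108 among genes of at least 10 CPM and 2401 with no filter and 0.1 CPM added, and was 566 with TMM and 561 with DESeq2 size factors. The coefficient of variation ran from 0.0728 to 0.131. Leaving out 1 library gave score ranges of 0.24 to 0.64 for mature oligodendrocytes, 0.11 to 0.24 for their precursors, 0.059 to 1.74 for border macrophages, 0.35 to 0.87 for pericytes and smooth muscle, 0.14 to 3.25 for meningeal fibroblasts, 0.21 to 0.41 for choroid plexus and 0.060 to 0.14 for midbrain factors. With all members scored, the catecholamine range was 0.63 in place of 1.29; members under 0.5 CPM enter there. The 14647 expressed genes were 14684 to 14745 with 1 library left out and 15844 at 0.5 CPM. All 1058 means of listed genes under the 2 other scalings moved by less than 1 SD, and those scalings shifted the median gene by at most 0.030 and 0.036 (log2). The longest transcript as length changed the highest member in 5 of 42 lists and moved 25 of 42 list medians of CPM per kilobase by more than 1 SD. No paired analysis was possible because no groups were compared. Genes under a few counts, such as the Hox genes and Phox2a, are limited by depth.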

Other observations

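The spread of list scores within the other groups of 4 libraries puts these values in context. The range of the meningeal fibroblast score was 3.25 in the wild-type naive libraries, 0.24 in knockout naive, 0.37 in wild-type morphine and 2.82 in knockout morphine libraries, so a second group also held a wide range. For serotonin neurons it was 1.73, 1.43, 0.38 and 1.53 in the same order of groups, and for cholinergic and motor neurons 1.95, 0.95, 2.84 and 1.61. The wild-type naive group had the widest range for mature oligodendrocytes, 0.64 against 0.25, 0.19 and 0.31, which rests on library 2: without it the range was 0.24. Whether these spreads differ between groups was not tested.

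Pituitary hormone transcripts appeared at trace levels with an uneven spread. Gh, growth hormone, measured 1.28, 0.302, 2.23 and 0.196 CPM, and Prl, prolactin, 1.28, 0.121, 0.637 and 0 CPM, while Cga, the common alpha chain of pituitary glycoprotein hormones, had 3 counts in all. Libraries 1 and 3 held more of both hormones than libraries 2 and 4. Pomc, which is also in the pituitary list, was likewise higher in libraries 1 and 3, by a smaller ratio. The source of these transcripts was not tested.

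Cerebellar granule cell genes were low but highest in library 2: Cbln3 measured 0.981, 2.66, 1.39 and 1.52 CPM and Fat2 0.377, 1.77, 0.617 and 0.367 CPM. Barhl2, listed with them but also known from the midbrain roof, measured 9.21, 16.3, 15.1 and 6.01 CPM.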
